A study of Rattus norvegicus with 4 samples.

Results

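The genes described here encode the cytosolic translation machinery: initiation factors (symbols that begin with Eif1 to Eif6), elongation factors (Eef1 and Eef2) and cytosolic aminoacyl-tRNA synthetases (a single amino acid letter followed by ars1, or Eprs1). Current rat symbols were looked up from the RefSeq accession of each array probe, and a gene was kept when a probe lay well above background on at least 1 of 4 arrays, with its brightest probe standing for it. This gave 46 genes of 6028 named genes and 22352 features (named genes, or unnamed transcripts with a probe) that passed the same filter. The array carried 71 probes for 47 such genes, and only Eef1a2 was never well above background. All 46 lay well above background on all 4 arrays, so each of their values is measured on both sides and none is a bound.

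RNA came from NRK-52E, an established line of rat kidney tubular epithelial cells. Confluent cells were kept for 1 h in DMEM with 0% (control), 0.003%, 0.006% or 0.009% hydrogen peroxide (H2O2), washed, and kept for a further 12 h in DMEM without serum, so the control array shares the serum withdrawal. Each dose was measured on 1 Cy3 Agilent array, and all 4 arrays lay on 1 slide read in 1 scan. There are therefore no replicates, each value stands for 1 culture, and no p-value is given for a dose against the control. By its title, the series looks for signals that dying cells give to the growth of the cells around them.

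Translation starts when eIF2 brings the initiator tRNA to the small ribosomal subunit, eIF3 and eIF1A hold that complex in a state that can scan, and eIF4E, eIF4A and eIF4G recruit it to the capped mRNA. The synthetases charge each tRNA with its amino acid, eEF1A delivers charged tRNAs to the ribosome, and eEF2 moves the ribosome along the mRNA. Under stress, kinases phosphorylate eIF2alpha, which slows initiation in general while the transcription factor Atf4 is translated more. Atf4 in turn activates genes of amino acid supply, including several synthetases.

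Levels below are log2 signals relative to the 75th percentile of the array's noncontrol spots, so 0 is a spot as bright as that percentile, and they are compared only within a gene. That percentile was a signal of 121 to 180, and 52.3 to 55.4% of the spots were well above background, with no saturated spot. A difference is the log2 level at a dose minus that on the control array, and ± is the scanner software's spot error. For the members this error was near 0.20 in nearly all cases, because the software gives a bright spot an error of 10.0% of its signal; it leaves out the spread between cultures. The 3 differences of a gene share the control array. Other scalings move every feature of an array by 1 amount: array median scaling by -0.15, -0.31 and -0.56 over the 3 doses, and scaling to the spike-in spots by -0.19, -0.56 and -1.19. A positive difference smaller than the amount for its dose therefore lies below 0 under that scaling.

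The tubular markers were mixed. Krt8, a keratin of simple epithelia, was at 5.89 without H2O2 and at 5.80, 5.45 and 5.20 with rising dose, and Aqp1, a water channel of the proximal tubule, at 0.96 and then at -1.15, -0.89 and -0.37. Others went the opposite way: Krt18, the partner keratin of Krt8, was at -3.95 and then at -1.74, -1.20 and -0.86, and Krt19 and Slc5a2 ended at 0.20 and -1.45 from -1.44 and -2.80. Of the epithelial list, 8 of 12 genes were well above background on at least 1 array, with summed signals of 62.2, 57.4, 45.8 and 40.04 as multiples of the 75th percentile, but Epcam and Pax8, for example, were not on any. Of 7 fibroblast markers, Pdgfrb and Col3a1 were well above background, and their summed signal was 29.7 on the control array and 8.62, 12.3 and 18.02 at the 3 doses; Dcn, Lum and Thy1 were not on any array. Of 5 endothelial markers, 2 had a probe with a name, and of these only Kdr was well above background. Its signal was 0.11 on the control array and 0.20, 0.25 and 0.32 at the doses. Of 5 macrophage markers, 4 had such a probe and 3 were well above background (Cd68, Csf1r and Adgre1). Their sums were 2.41, 2.98, 3.97 and 4.31. A named probe was present for 11 of the 12 epithelial and 5 of the 7 fibroblast markers. A marker without one could not be measured. The sums of the epithelial, fibroblast and macrophage lists mostly follow the brightest gene of each, Krt8, Col3a1 and Cd68. The part of these markers in the results below was not tested.

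The translation genes as a group lay above the control, furthest at the lowest dose. At 0.003%, 21 of the 46 lay 2-fold or more above the control and none as far below it, where 14.9% of all 20895 features compared were higher and 13.6% lower. At 0.006%, 16 were higher and none lower, against 14.9% and 10.5% of all features. At 0.009%, 9 were higher and 1 lower, against 16.5% and 7.4%. The share of higher members at 0.009%, 19.6%, was near the background, but this reading depends on the setting: 7 of 46 were higher with normexp, against 4.42% of all features, and 8 with quantile normalization, against 9.82%. Among features well above background on both arrays, as all members are, it was 9 of 46 against 11.9%. By the array median it was 2 of 46 against 6%, and by the spike-in spots 1 against 2.37%. With 1 array per dose the 2-fold line only sorts by size. Any distance above the control was seen in 38, 37 and 33 of 46 members, against 51.2%, 50.4% and 55.5% of all features.

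The median difference of the 46 genes was 0.87, 0.73 and 0.43 over the 3 doses, while that of all features was 0.03, 0.01 and 0.13. It was positive at 0.003% and 0.006% under every scaling tried, but at 0.009% array median scaling made it -0.13 and spike-in scaling -0.75. Over all features, the 3103 higher and 2840 lower ones at 0.003% became 2483 and 3539 by the array median and 2339 and 3770 by the spike-in spots, and the 3072 and 2165 at 0.006% became 1955 and 3782, and 1318 and 5562. At 0.009%, the 3536 higher and 1587 lower ones became 1287 and 4843 by the array median, 508 and 10987 by the spike-in spots and 2107 and 2360 under quantile normalization. Above the median of all features lay 38, 37 and 33 of 46 members at the 3 doses, where 50% of all features do by definition. A scaling by 1 amount per array leaves this place nearly fixed by construction. The settings that can move it, quantile normalization and normexp background correction, gave 37, 35 and 29, and 37, 35 and 27. The members nearest to the 2-fold line at 0.003% were Eif5a at 1.02 inside and Eif3d at 0.95 outside it, and at 0.009% Eif1a at 1.18 and Eprs1 at 0.83.

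**Figure D1:**
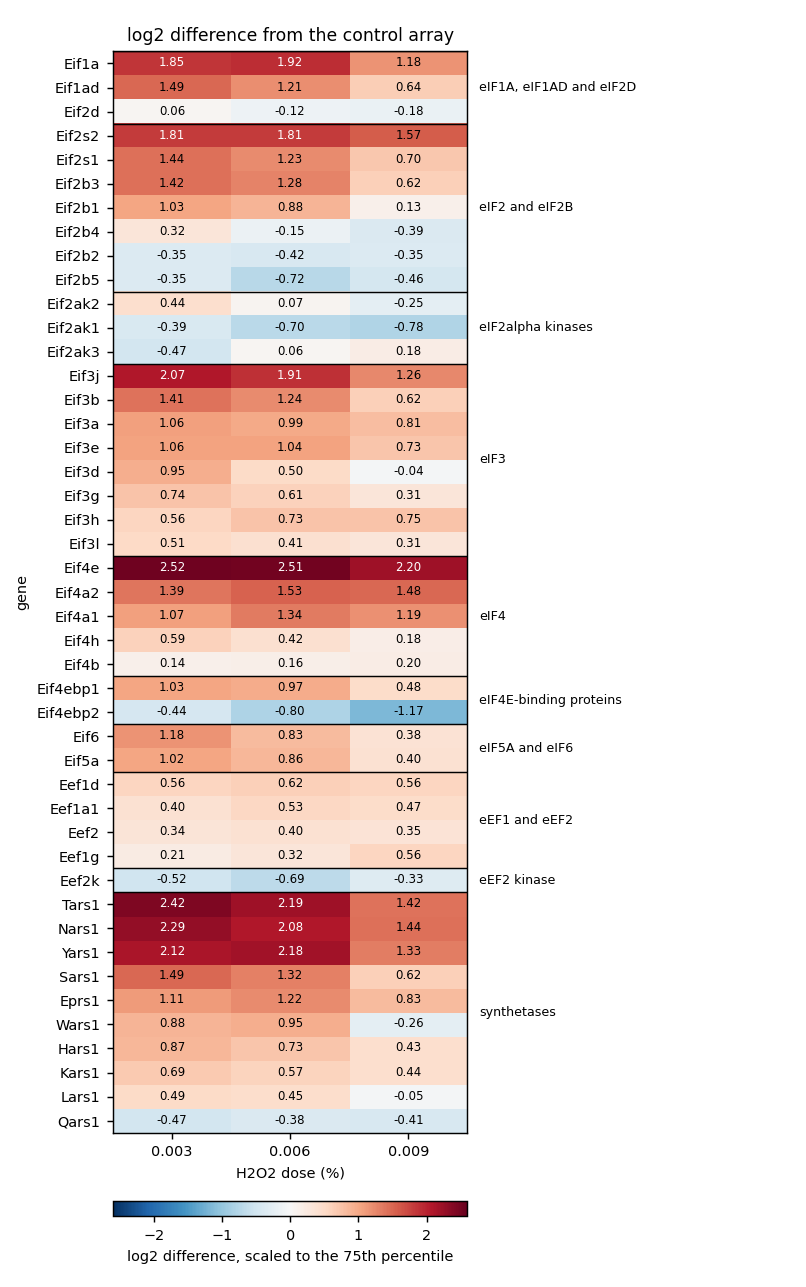
Log2 difference from the control array of translation genes (rows, grouped by role) at 0.003, 0.006 and 0.009% H2O2 (columns), scaled to the 75th percentile; red is higher and blue lower than the control. Eif4e, Tars1, Nars1 and Yars1 are the darkest red at 0.003%, and Eif4ebp2 at -1.17 is the only blue cell past 2-fold; of the positive cells at 0.009%, 25 turn negative with spike-in scaling.

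**Figure D2:**
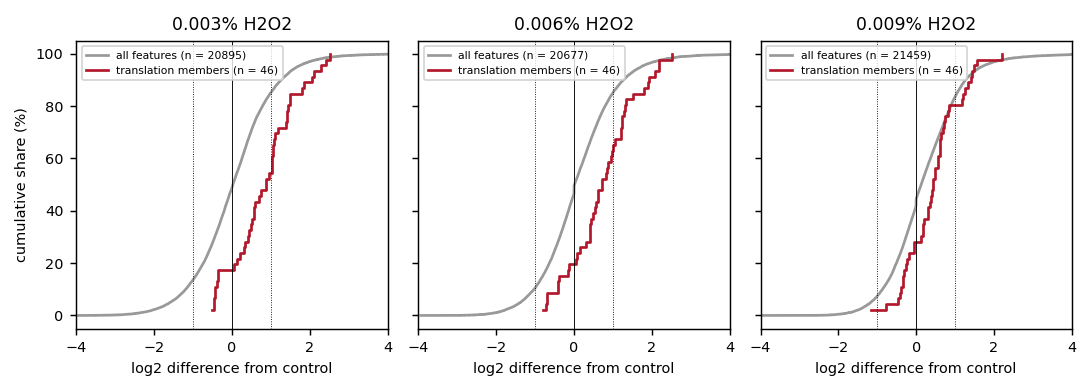
Cumulative share (%) of the 46 translation genes (red) and of all features (grey) against the log2 difference from control, 1 panel per dose; dotted lines mark 2-fold. The red curve lies to the right of the grey at 0.003% and 0.006%, with medians of 0.87 and 0.73 against 0.03 and 0.01, and closer to it at 0.009% (0.43 against 0.13).

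In most members the difference was largest at the lowest dose and smaller at the highest. Among them, 26 had their highest level at 0.003%, 9 at 0.006%, 4 at 0.009% and 7 on the control array, or 56.5%, 19.6%, 8.70% and 15.2%. Of the 17054 features well above background on all 4 arrays, the shares were 26.96%, 9.85%, 29.1% and 34.1%. The level at 0.009% was below that at 0.003% in 34 of 46 (73.9%), against 44.5% of those features. The median of this change from 0.003% to 0.009% was -0.40 for the members and 0.16 for all features compared. Only Wars1 and Tars1 were at least 2-fold lower at 0.009% than at 0.003%, or 4.35% of members against 5.31% of all features, and no member was 2-fold higher, against 12.4%; 12 members lay higher at 0.009% at all, against 57.6%.

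By the brightest probe of each gene, a cap-binding factor held the largest difference among the 46 genes. Eif4e, which encodes the protein that binds the mRNA cap and limits initiation in many cells, was at 3.21 on the control array and at 5.73, 5.71 and 5.41 at the 3 doses. All 3 treated arrays were far above the control, by 5.73-fold, 5.68-fold and 4.60-fold (log2 2.52, 2.51 and 2.20, each ± 0.20). The size and the first place rest on the probe, since the other, dimmer Eif4e probe was higher by only 0.76, 0.90 and 0.70. With spike-in scaling that probe would lie below the control at 0.009%, whereas the brightest would not. With the mean of probes, Eif4e was higher by 1.64 at 0.003%, less than Nars1 (2.74) and Tars1 (2.42) among others.

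The RNA helicase eIF4A unwinds the leader of the mRNA and has a pair of near-identical genes. Eif4a1 was at 5.97 on the control array and at 7.04, 7.31 and 7.16 at the doses, and Eif4a2 was at 5.80 and then at 7.19, 7.33 and 7.28. Both were at least 2-fold higher at all 3 doses, with differences of 1.07, 1.34 and 1.19 for Eif4a1 and of 1.39, 1.53 and 1.48 for Eif4a2. The 4 other Eif4a1 probes were also higher at every dose but showed another dose pattern: each lay furthest from the control at 0.003% (1.67 to 1.96) and nearest to it at 0.009% (1.05 to 1.33). Cross-hybridisation between these genes cannot be told apart from signal of each. Of the helicase cofactors, Eif4h was at 6.59 on the control array and at 7.18, 7.01 and 6.77 at the doses, and Eif4b at 4.24 and then at 4.38, 4.40 and 4.44. Neither was 2-fold higher, and the small differences of Eif4b (0.14, 0.16 and 0.20) were below 0 at every dose under both of the other constant scalings, by array median and by spike-in spots. The 3 other Eif4b probes lay higher, between 0.31 and 0.84, and the mean of its probes was 0.51, 0.45 and 0.42. Eif4g1, the scaffold of this complex, is not analysed here.

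The eIF4E-binding proteins hold eIF4E away from the scaffold until they are phosphorylated, and their 2 measured genes went opposite ways. Eif4ebp1, also known as a target of Atf4, was at 5.29 on the control array and at 6.32, 6.25 and 5.76 at the doses. Its differences were 1.03, 0.97 and 0.48, the last below 0 when scaled by the array median or the spike-in spots. Eif4ebp2 was at 2.39 and then at 1.95, 1.60 and 1.22, lower at each dose than at the one before. It was the only member at least 2-fold lower at any dose, by -1.17 ± 0.20 at 0.009%, while its dimmer probe was at 0.04, -0.27 and -0.27. Of all 46 genes it had the smallest p in the straight-line trend over dose given below.

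**Figure D3:**
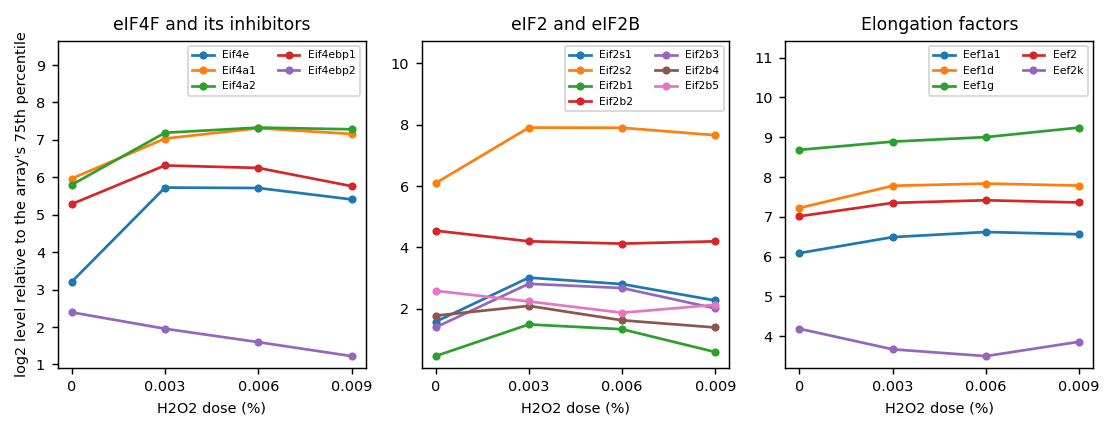
Log2 level relative to the array's 75th percentile (vertical axis) against H2O2 dose in % (horizontal axis), 1 point per array, for the eIF4 factors and their inhibitors, for eIF2 and eIF2B, and for elongation factors with eEF2 kinase. Eif4e goes from 3.21 to 5.73 and Eif2s2 from 6.10 to 7.91 at 0.003%, Eif4ebp2 steps down to 1.22, and the elongation factors move by at most 0.62 from the control.

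eIF2 carries the initiator tRNA, and 2 of its subunit genes were measured. Eif2s2, the beta subunit, was at 6.10 on the control array and at 7.91, 7.90 and 7.66 at the doses, a difference of 1.81, 1.81 and 1.57. Its 3 probes were alike, the smallest difference of any being 1.56. Eif2s1, the alpha subunit that the stress kinases phosphorylate, was at 1.57 and then at 3.02, 2.81 and 2.27. Its differences were 1.44, 1.23 and 0.70, the last negative with spike-in scaling.

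eIF2B recharges eIF2 with GTP and is the complex that phosphorylated eIF2 blocks. Its 5 subunit genes did not move together. The regulatory alpha subunit Eif2b1 was at 0.46 on the control array and at 1.49, 1.33 and 0.59 at the doses, and the gamma subunit Eif2b3 at 1.39 and then at 2.81, 2.68 and 2.01. Both were over 2-fold higher at 0.003% (1.03 and 1.42) and nearer to the control at 0.009% (0.13 and 0.62). The catalytic epsilon subunit Eif2b5 was at 2.59 and then at 2.24, 1.87 and 2.13, and the beta subunit Eif2b2 at 4.55 and then at 4.20, 4.12 and 4.20, both below the control on all treated arrays. Eif2b4, the delta subunit, was at 1.78 and then at 2.09, 1.62 and 1.39, above the control at the lowest dose only. The values of Eif2b1 and Eif2b3 at 0.009% turned negative with spike-in scaling, that of Eif2b1 also when scaled by the array median.

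The kinases of eIF2alpha were near or below the control. Eif2ak1 (HRI), known for sensing haem shortage and oxidative stress, was at 4.21 on the control array and at 3.83, 3.52 and 3.43 at the doses, a difference of -0.78 ± 0.20 at 0.009%. Eif2ak2 (PKR), activated by double-stranded RNA, was at 0.48 and then at 0.92, 0.54 and 0.23, a difference of -0.25 at 0.009% where its dimmer probe was at 0.93. Eif2ak3 (PERK), the kinase of endoplasmic reticulum stress, was dim, at -3.17 and then -3.64, -3.11 and -2.99, and its differences of -0.47, 0.06 and 0.18 carry a larger error of 0.34, 0.33 and 0.33. None of the 3 was 2-fold from the control, and Eif2ak4 is not analysed here. Downstream, Atf4 itself was at 5.82 on the control array and at 8.30, 8.51 and 8.46 at the doses, or 5.58-fold, 6.46-fold and 6.24-fold higher. Unlike most members, Atf4 was no lower at 0.009% than at 0.003%, but its differences there, 2.64 and 2.48, lay within the spot error of 0.20. Array median scaling moves these by -0.56 and -0.15, which makes the one at 0.009% the lower.

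Among the genes of scanning, Eif1a, which encodes an eIF1A protein nearly identical to that of Eif1ax, was at 1.96 on the control array and at 3.81, 3.88 and 3.13 at the doses. Its differences were 1.85, 1.92 and 1.18, and the last became -0.01 with spike-in scaling. Eif1ad, a gene named for its eIF1A-like domain, was at 2.90 and then at 4.39, 4.12 and 3.54, and its difference of 0.64 at 0.009% was negative with spike-in scaling. Eif2d, which can deliver tRNA to the ribosome without eIF2, was at 1.00 and then at 1.06, 0.88 and 0.82, close to the control on every array. Eif1 and Eif5 are not analysed here.

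eIF3, the largest initiation factor, bridges the small subunit and the cap complex. Of its 8 measured subunit genes, all 8 were above the control at 0.003% and 0.006% and 7 at 0.009%, against 51.2%, 50.4% and 55.5% of all features. At the 3 doses 4, 3 and 1 of the 8 passed 2-fold, against 14.9%, 14.9% and 16.5% of all features. Eif3j, a loosely bound subunit, was at 1.29 on the control array and at 3.36, 3.20 and 2.55 at the doses, or 4.20-fold, 3.75-fold and 2.39-fold higher. The core subunit Eif3a was at 3.38 and then at 4.44, 4.37 and 4.18, and Eif3b at 3.56 and then at 4.97, 4.80 and 4.18. Eif3d, which can itself bind the cap, was at 5.18 and then at 6.13, 5.67 and 5.13, the widest span between doses of the 8, with a difference of 0.95 at 0.003% and -0.04 at 0.009%. Eif3h was at 1.45 and then at 2.01, 2.18 and 2.20, the only subunit higher at 0.009% than at 0.003%. Eif3g (2.77, then 3.503, 3.37 and 3.08) and Eif3l (6.92, then 7.43, 7.34 and 7.24) were above the control by less than 2-fold, and Eif3e was just past it at 0.003% and 0.006% (1.06 and 1.04). With spike-in scaling, Eif3j was the only eIF3 subunit above the control at 0.009%.

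Eif5a, whose protein carries hypusine and helps the ribosome through difficult peptide bonds, was at 5.59 on the control array and at 6.61, 6.44 and 5.98 at the doses. Eif6, which keeps the large subunit from joining too early, was at 4.56 and then at 5.73, 5.39 and 4.94. Both were just over 2-fold higher at 0.003% (1.02 and 1.18), lower at each further dose, and negative at 0.009% when scaled by the array median or the spike-in spots.

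The elongation factors were bright and differed little. Eef1a1, which delivers charged tRNAs and has many pseudogenes that may add to its signal, was at 6.09 on the control array and at 6.49, 6.62 and 6.56 at the doses. Eef1g, a subunit of its exchange factor, was at 8.68 and then at 8.89, 9.004 and 9.24, and Eef1d, another, at 7.22 and then at 7.78, 7.84 and 7.79. The translocase gene Eef2 was at 7.01 and then at 7.35, 7.42 and 7.36. The differences of these genes lay between 0.21 and 0.62. None of these 4 genes was 2-fold higher at any dose, and all 4 were positive at every dose, unlike under other scalings: at 0.009% all 4 were negative with spike-in scaling, and Eef1g was negative at all 3 doses with quantile normalization. Unlike most initiation factors, none of the 4 was lower at 0.009% than at 0.003%, but this rests on the scaling. Apart from Eef1g (0.35), the change between these doses was at most 0.07, below the spot error. With array median scaling all 4 were lower at 0.009% than at 0.003%, Eef2 for example at -0.22 against 0.19. Eef2k, the kinase that inactivates eEF2, was at 4.19 and then at 3.67, 3.498 and 3.86, a difference of -0.52, -0.69 and -0.33, and its dimmer probe was much lower, at -2.27 and -2.08 at the lowest and highest doses. At 0.006% that probe was not well above background, so its difference of -2.45 is a bound, and the true one may be lower.

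The 11 measured synthetases differed widely among themselves, from -0.47 to 2.42 at 0.003%. Tars1, the threonine enzyme, was at -1.17 on the control array and at 1.25, 1.03 and 0.25 at the doses, or 5.35-fold, 4.58-fold and 2.67-fold higher. Nars1, the asparagine enzyme, was at 1.98 and then at 4.27, 4.06 and 3.42, or 4.89-fold, 4.22-fold and 2.71-fold higher. Yars1, the tyrosine enzyme, was at 1.66 and then at 3.79, 3.85 and 2.998, or 4.35-fold, 4.54-fold and 2.52-fold higher. In these 3 genes all treated arrays were at least 2-fold above the control, and the highest dose was the nearest to it. The 2-fold line at 0.009% rests on the scaling: by the array median the 3 differences there were 0.85, 0.88 and 0.77, and normexp put Tars1 at 0.90 there and at 1.69 at 0.003%. They stayed above the control at 0.009% with spike-in scaling.

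Sars1, the serine enzyme, had differences of 1.49, 1.32 and 0.62, and Eprs1, a fused enzyme for glutamate and proline, of 1.11, 1.22 and 0.83. Both were negative at 0.009% with spike-in scaling. Wars1, the tryptophan enzyme, was at 0.08 and then at 0.97, 1.03 and -0.17, the largest step between 0.003% and 0.009% of all members. Its differences were 0.88, 0.95 and -0.26, and those of its dimmer probe 2.27, 2.003 and 0.57, so the probes disagree on the size and, at 0.009%, on the sign. At the other end, Qars1, the glutamine enzyme, was at 2.57 on the control array and at 2.10, 2.19 and 2.15 at the doses. Its differences (-0.47, -0.38 and -0.41) were about as large at every dose and none was 2-fold.

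A list of 13 synthetase genes reported to respond to Atf4 divides the 11 measured genes into 7 on the list (Eprs1, Lars1, Nars1, Sars1, Tars1, Wars1 and Yars1) and 4 others (Hars1, Kars1 and Qars1 among them). Of the 7 listed genes, 5, 5 and 3 were at least 2-fold higher at the 3 doses, and none of the 4 others was. Of all features, 14.9%, 14.9% and 16.5% were, so none among 4 genes is near that share. The medians were 1.49, 1.32 and 0.83 for the listed genes, and 0.13, 0.10 and 0.06 for the others, beside 0.03, 0.01 and 0.13 for all features. The groups overlapped at every dose, since Hars1 at 0.87, 0.73 and 0.43 lay above Lars1 at 0.49, 0.45 and -0.05. The listed genes also came down further from 0.003% to 0.009%, with a median of -0.85 against -0.10. No test was made of this difference, with 1 array per dose. The list was also chosen with earlier results of these data known.

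**Figure D4:**
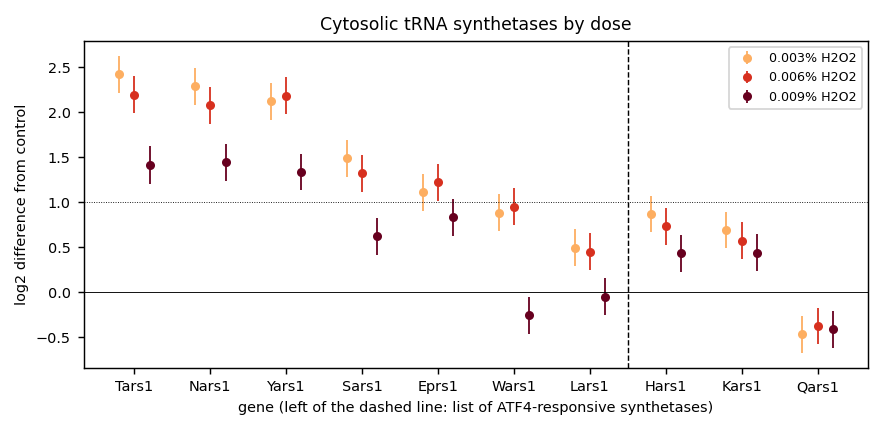
Log2 difference from control (vertical axis) of cytosolic synthetase genes at 3 doses; points are single arrays and bars the spot error, about 0.20. Tars1, Nars1 and Yars1 lie above the dotted 2-fold line at all doses, while Qars1 lies below 0; with spike-in scaling the positive values at 0.009% of Sars1, Eprs1, Hars1 and Kars1 turn negative.

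The promoter windows of 40 members, from 250 bases before to 50 bases after the annotated start in RefSeq (assembly GRCr8), were searched on both strands for TGATGNAA, the core of the composite C/EBP-ATF element that Atf4 binds (N is any base). It was found in 5 of 40 members, and in 3.82% of 27457 windows of the same length. The 4 matches with C at the open base, TGATGCAA, lay in Tars1, Nars1, Yars1 and Eif2s2, and 0.743% of all windows hold that form. These genes ranked at places 2, 3, 4 and 7 among the 46 by their difference at 0.003%. The planned search was for TGATGNAA only, and the narrower form leaves out Eif3g at place 25. The ranks are therefore a description and no test. Their differences spanned 1.81 to 2.42 at that dose and 1.33 to 1.57 at 0.009%, while the 36 members without it spanned -0.52 to 2.52 and -1.17 to 2.20. Eif4e, Eif3j and Eif1a, also high, hold no match. The remaining match, in Eif3g, read TTCCATCA, and Eif3g was at 0.74 at 0.003%. A match is a description of letters and not a site.

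These stretches are shown because they hold the shared letters near the start of the highest synthetase genes and of Eif2s2. Each is written 5′ to 3′ on the strand of the gene, with the match in capitals; in Tars1 it reads as the reverse complement. The stretches of Tars1 (chr2:62114803-62114922, minus strand), Nars1 (chr18:60275783-60275902, minus strand) and Eif2s2 (chr3:163855571-163855690, minus strand) are the 120 bases before the start, and that of Yars1 (chr5:146820190-146820212, plus strand) is 23 bases around a match after the start.
Tars1: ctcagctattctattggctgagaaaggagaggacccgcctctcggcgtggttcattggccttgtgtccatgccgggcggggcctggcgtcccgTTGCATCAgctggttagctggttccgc
Nars1: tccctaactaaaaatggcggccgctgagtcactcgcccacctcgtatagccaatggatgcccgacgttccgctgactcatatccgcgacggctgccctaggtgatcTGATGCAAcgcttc
Eif2s2: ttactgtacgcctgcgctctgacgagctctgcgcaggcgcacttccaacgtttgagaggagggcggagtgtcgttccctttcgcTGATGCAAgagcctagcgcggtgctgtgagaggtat
Yars1: acgagctcagcTGATGCAAcctg
The match begins 27 bases before the start in Tars1, 14 in Nars1 and 36 in Eif2s2.

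Eif4e was looked at for CACGTG, the E-box that Myc and related factors bind, since its promoter is a textbook example of one; the letters read the same on both strands. They occur at 2 places in the 250 bases before its start (chr2:229740503-229740752, plus strand), in capitals here because Eif4e has the largest difference of the set by brightest probe.
Eif4e: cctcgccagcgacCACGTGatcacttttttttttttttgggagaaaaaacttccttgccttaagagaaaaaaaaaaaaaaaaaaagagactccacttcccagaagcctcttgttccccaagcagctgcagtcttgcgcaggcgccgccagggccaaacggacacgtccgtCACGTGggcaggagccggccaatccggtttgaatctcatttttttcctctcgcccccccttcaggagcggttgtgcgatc
CACGTG was in 8 of 40 member windows and in 6.65% of all windows. The 8 included both Eif4e, by brightest probe the highest member at 0.003%, and Eef2k, the lowest. The median of the 8 was 1.04, beside 0.87 for the 32 members without it.

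Genes next to the set in the pathway were taken from fixed lists. Here and below, values given for the doses only are differences from the control. Of all features, 14.9%, 14.9% and 16.5% lay 2-fold above the control at the 3 doses and 13.6%, 10.5% and 7.4% below it. Of 5 measured genes of termination and recycling, 2, 1 and 1 lay 2-fold above the control at the 3 doses and none below it; Etf1, the release factor that reads stop codons, was at 1.53, 1.60 and 1.39, and Pelo, which rescues stalled ribosomes, at 0.89, 0.81 and 0.68. The poly(A)-binding protein gene Pabpc1 was at 0.50, 0.44 and 0.39, and its partner Paip2 at 0.21, 0.22 and 0.22, with no 2-fold difference. Of 3 measured genes around eIF2 phosphorylation, all 3 were at least 2-fold higher at every dose, among them Atf4 and Ppp1r15a, the subunit that directs a phosphatase to eIF2alpha, at 4.46, 4.84 and 4.69.

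Of 5 measured regulators of mTOR and eIF4E, 3 lay 2-fold above and 2 lay 2-fold below the control at 0.003%, then 2 and 1 at 0.006%, and 1 and 1 at 0.009%. Mtor, the kinase that phosphorylates the eIF4E-binding proteins, was at -1.48 on the control array and at -2.65, -2.96 and -3.22 at the doses. Its differences were -1.17, -1.48 and -1.74, and those of Ddit4, an inhibitor of mTOR complex 1, were 1.64, 1.69 and 1.35. Of 4 measured genes of the multisynthetase scaffold and the phenylalanine enzyme, only Aimp2, named after its value was seen, passed 2-fold, at 1.19 at 0.003%; Aimp1 was at 0.44 and Farsa at -0.28 at 0.009%.

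The mitochondrial synthetases, encoded by separate genes, lay on the other side of the control. Of 7 measured, none was 2-fold higher and 3, 2 and 1 were 2-fold lower at the 3 doses, against 13.6%, 10.5% and 7.4% of all features lower. Their medians were -0.55, -0.78 and -0.55, beside 0.88, 0.95 and 0.44 for the 11 cytosolic ones. The median at 0.006% is the value of Nars2, which was not well above background there, so it is a bound and the true median may be lower. The median of the cytosolic ones at 0.009% was -0.12 after array median scaling and -0.75 after scaling to the spike-in spots. Pars2, the mitochondrial proline enzyme, was at 2.52 on the control array and at 1.43, 0.90 and 0.93 at the doses. Vars2, the valine enzyme, had differences of -0.31, -0.54 and -0.78. The enzyme pairs of 3 amino acids, named after their values were seen, can be set side by side at 0.003%. Nars1 was at 2.29 and Nars2 at -0.50, and Tars1 at 2.42 and Tars2 at -0.55, on opposite sides of the control. Yars1 and Yars2 were both above it, at 2.12 and 0.81. The 4 measured mitochondrial translation factors showed no 2-fold difference, with Mrrf at 0.83, 0.76 and 0.61 and Mtrf1l at 0.78, 0.63 and 0.58.

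A straight line over dose was fitted to all 22352 features with limma, on 4 arrays with 2 residual degrees of freedom. No member and no other feature was called at a Benjamini-Hochberg adjusted p under 0.05 (0% of features). At an unadjusted p under 0.05 there were 1 member (2.17%) and 3095 features (13.8%). That member was Eif4ebp2, with a slope of -0.39 per 0.003% step (limma, adjusted p = 0.305), lower in 3 of 3 treated arrays. Eif4e, with a slope of 0.66, had a limma adjusted p of 0.476. Levels that are highest at the lowest dose, as in 26 members, follow no straight line.

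**Figure D5:**
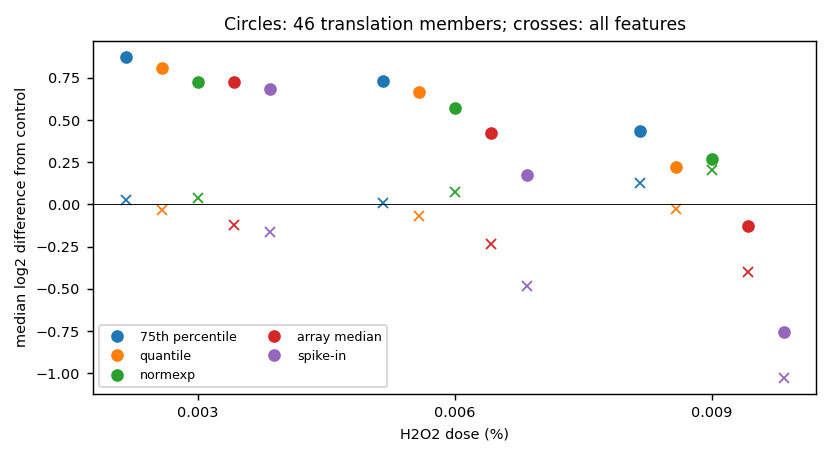
Median log2 difference from control (vertical axis) of the 46 translation genes (circles) and of all features (crosses) at the 3 doses (horizontal axis) under 5 ways of scaling or background correction, in colours. The circles lie above the crosses under each of the 5, while the median of the members at 0.009% goes from 0.43 with the 75th percentile to -0.13 by the array median and -0.75 by the spike-in spots.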

How the data were processed

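Per the file headers, the authors read the 4 one-colour arrays (design 014879) under protocol GE1_107_Sep09 of Agilent's Feature Extraction 10.7.3.1; the deposited processed spot signal is a linear intensity, used here before any scaling between arrays. The authors' deposited value table holds a linear ratio, which in 100% of probes equalled the mean signal over the array median to within 1e-06, so as an alternative it repeats array median scaling. Outlier spots were left out, log2 signals of a probe's spots were averaged, and each array was set to its own 75th percentile by subtraction on the log2 scale. RefSeq accessions named 10834 of 41007 probes (26.4%); the RefSeq tables are of GRCr8. Where 1 side of a comparison was not well above background, the higher of its own signal and the array's lowest signal well above background stood in; this touched features in the background shares, Nars2, some marker differences and the dimmer probes of Eef2k and Eif2ak2 at 0.006%, but no member's brightest probe. The members, gene lists and motifs were chosen with earlier results of these data known. TGATGCAA and the E-box were outside the planned search, and the E-box was added last. The rule for names: a fixed set of factors, the 3 highest and 3 lowest of each role group at 0.009% and members 2-fold at all doses get values on every array; pathway lists give their 2 largest differences at 0.009%. The trend used limma 3.58.1 in R 4.3.3. It was run on simulated data with straight-line changes and independent noise only, which does not cover levels highest at the lowest dose. The files hold no mean spot signal, so normexp (offset 50) used the median spot signal. No depth applies to arrays: their number, 1 per dose, limits the precision. Values of 1 member, which stays in the counts and medians, are not reported here.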

Additional observations from a re-analysis of the deposited data

How the results depend on the processing

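Array median and spike-in scaling move all genes of an array alike, by the least at 0.003%, so the number of the 46 members that turned sign grew with dose by construction: 2 and 2, then 3 and 10, then 14 and 25. The number at least 2-fold higher at 0.003%, 21, became 14 with array median scaling, 15 with quantile normalization and 13 with spike-in scaling. The shares of all features were 11.9%, 12.8% and 11.2%. At 0.006% the 16 higher members became 10 with array median scaling and with the authors' deposited table, which equals it. They became 7 with spike-in scaling and 26 with a 1.5-fold rule, and at 0.009% the 9 became 2, 1 and 18. By the array median and the spike-in spots, 9.45% and 6.37% of all features were higher at 0.006%, and 6% and 2.37% at 0.009%. The share of all features under the 1.5-fold rule was not counted. Members at least 2-fold lower went from 0 to 1 at 0.003% with the mean of a gene's probes, against 13.5% of all features. At 0.006% the 0 lower members became 3 with array median scaling, 4 with spike-in scaling and 1 with the mean of probes. The shares of all features there were 18.3%, 26.9% and 10.4%. At 0.009% the 1 lower member became 3 of 46 with array median scaling and 16 of 46 with spike-in scaling. Both are smaller shares than the 22.6% and 51.2% of all features that were lower. The 1.5-fold rule gave 4 lower members at 0.006% and 2 at 0.009%. The members' median at 0.006%, 0.73, became 0.42 by the array median and 0.17 by the spike-in spots; at 0.009% the median of 0.43 became 0.22 under quantile normalization, -0.13 by the array median and -0.75 by the spike-in spots. These shifts follow from the scalings' construction. Of the members called at 0.009%, Eif1a reversed with spike-in scaling, to -0.0117. Keeping outlier spots, normexp or requiring both arrays well above background moved no count of members by over 1.5 times, but normexp took all features from 3103 higher and 2840 lower to 1399 and 1306 at 0.003%, from 3072 and 2165 to 1236 and 1048 at 0.006%, and from 3536 and 1587 to 948 and 733 at 0.009%, where the filter on both arrays left 2134 and 1396. With 17 members measured by several probes, probes of 3 differed by over 1 at each dose (Eif4e and Eef2k at all 3). The trend called 0 members under every alternative, including log2 dose and without any 1 of the 3 treated arrays; the smallest adjusted p of a member (limma) ranged from 0.103 to 0.9999 over these. Without the 0.003% array, 330 of all features were called, where the other fits called 0. No paired analysis was possible because each dose has 1 array and the labels carry no replicate numbers.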
